A study of Canis lupus familiaris with 18 samples.

Results

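Among the 84 genes of an RT-qPCR array for canine mesenchymal stem cells, 5 encode cytokines and growth factors with which stromal cells support the formation of blood cells. They were taken by gene symbol and are KITLG (KIT ligand, array well D11), IL6 (interleukin 6, well D02), LIF (leukemia inhibitory factor, well D12), CSF3 (granulocyte colony-stimulating factor, well B05) and CSF2 (granulocyte-macrophage colony-stimulating factor, well B04). All 5 were assayed in all 18 samples, although 15 of their 90 wells were not detected and were set to the detection limit.

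The samples were adipose-derived mesenchymal stem cells (cAD-MSCs) of 9 dogs, each measured in early culture (passage 3, P3) and in later culture (passage 6, P6), to ask how expression differs after longer culture. The donors were clinically healthy female dogs of several breeds, juvenile to adult, and cells were released from their abdominal fat with collagenase. Both passages grew in the same basal medium with fetal bovine serum, received no treatment and were harvested close to confluence. P3 is the control group of the labels and P6 the test group, and no cell sorting is described, so that a value describes a whole flask. In such bulk samples, fewer cells of a type and less RNA per cell cannot be told apart.

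KIT ligand, also known as stem cell factor, holds blood stem cells in the marrow niche, where stromal cells around vessels are a main source, and also feeds mast cells and melanocytes. IL6 and LIF belong to a cytokine family that signals through a shared receptor subunit, IL6ST. IL6 is a characteristic secreted product of cultured stromal cells. CSF3 and CSF2 drive the production of granulocytes and macrophages, and fibroblast-like cells raise both when stimulated by inflammatory cytokines such as TNF or IL1B.

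Expression is given as −ΔCT, the CT (the cycle at which a well crosses the fluorescence threshold) of a gene subtracted from the geometric mean CT of 5 reference genes. It is a log2 scale, so that 1 unit is a 2-fold difference, 0 is the reference level and more negative values are lower. A CT above 35 cycles, or a well that never crossed, was set to 35 and is called not detected. Reference CT lay between 14.11 and 15.71 cycles and 72 to 81 of the 84 genes were detected per sample. Markers of mesenchymal stem cells (THY1, ENG, CD44, ITGB1 and NT5E) were detected in 44 of 45 wells at P3 and in 45 of 45 at P6. Some samples stood apart. In the P6 sample of donor 9/21, 18 genes lay over 5 cycles from the median of the other donors of that passage, against 11 and 9 in the P6 samples of donors 7/22 and 6/22, 8 in the P3 sample of donor 7/22 and 1 to 6 in the others. Several results are therefore given with and without the P6 samples of donors 9/21 and 6/22 and the P3 sample of donor 7/22, a choice made after seeing the data. The P6 sample of donor 7/22 was left out only together with the P3 sample of that donor.

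**Figure D1:**
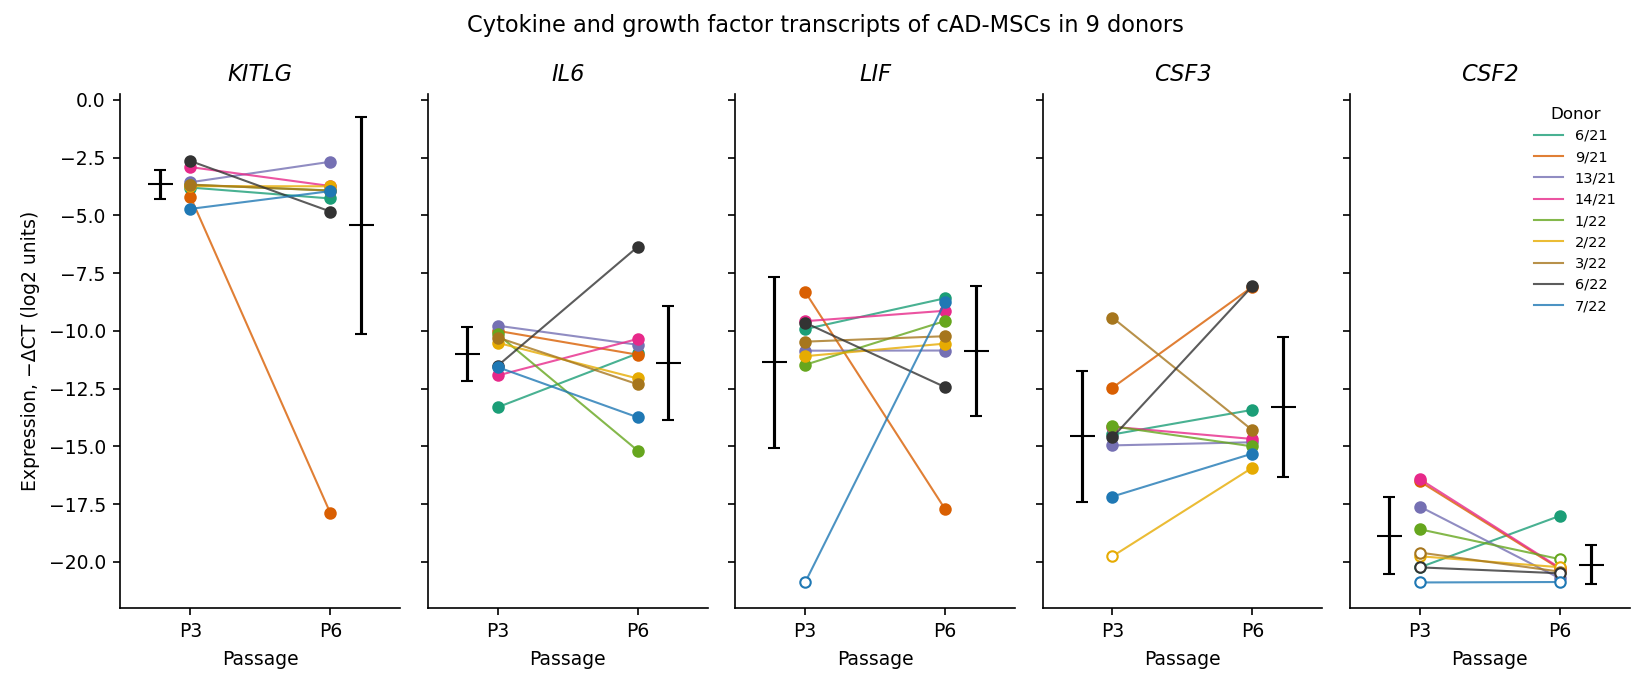
Expression (−ΔCT, log2 units, vertical axis) of each of the 5 genes at P3 and P6, with a line for each of the 9 donors. Filled points are detected wells, open points are wells set to the limit of 35 cycles, and bars beside the points are the mean ± SD of 9 samples. KITLG is highest in both passages and drops out of its narrow band in 1 sample, donor 9/21 at P6 (−17.88), while most CSF2 points are open.

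KITLG had the highest mean −ΔCT of the 5 genes in both passages and the least spread among donors at P3. Its CT ranged from 17.41 to 19.39 cycles at P3 with a median of 18.77, and from 16.97 to 32.58 at P6 with a median of 18.51. In −ΔCT, the lowest, median and highest P3 samples were at −4.72, −3.68 and −2.65, and the P6 samples at −17.88, −3.93 and −2.68. The lowest P6 value is donor 9/21, which lay far under every other sample. The other 8 P6 samples ran from −4.83 to −2.68 and overlapped the P3 samples almost entirely.

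Mean KITLG expression was −3.66 ± 0.615 (SD, n = 9) at P3 and −5.44 ± 4.70 (SD, n = 9) at P6. The log2 difference of −1.78 (SE 1.51, 95% interval −4.96 to 1.40), or 3.44-fold lower at P6, did not pass the test (limma, adjusted p = 0.873). The level was lower at P6 in 7 of 9 donors, with a difference of −13.69 log2 units in donor 9/21 and −2.19 in donor 6/22, and of −0.82 or nearer to 0 in the remaining 5. Donors 13/21 and 7/22 were higher at P6, by 0.89 and 0.77. Without the P6 sample of donor 9/21, P6 expression was −3.88 ± 0.603 (SD, n = 8) and the difference was −0.23 (SE 0.340, limma, adjusted p = 0.894). The medians of the passages differed by −0.25.

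The low KITLG well of donor 9/21 lies in a run of array wells that read unlike most of the other samples. In this sample KDR, the VEGF receptor assayed in the adjacent well D10, crossed at 12.18 cycles, earlier than in any of the other 17 samples (18.94 to 35). LIF, on the other side in well D12, crossed at 32.41 cycles against a median of 24.81 in the others (22.89 to 35). The acetyltransferase genes KAT2B (D09) and HAT1 (E01) were at 32.26 cycles and undetermined, against medians of 19.89 and 20.57 cycles. The others ranged from 18.57 to 35 cycles for KAT2B and from 18.59 to 22.54 for HAT1. The deacetylase gene HDAC1 (E02) was also undetermined, with a median of 22.63 cycles in the others (21.15 to 35). JAG1 in D08 crossed at 18.71 cycles, the earliest value seen for it, shared with the P6 sample of donor 6/22. The part of well position in the KITLG and LIF values was not tested.

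**Figure D2:**
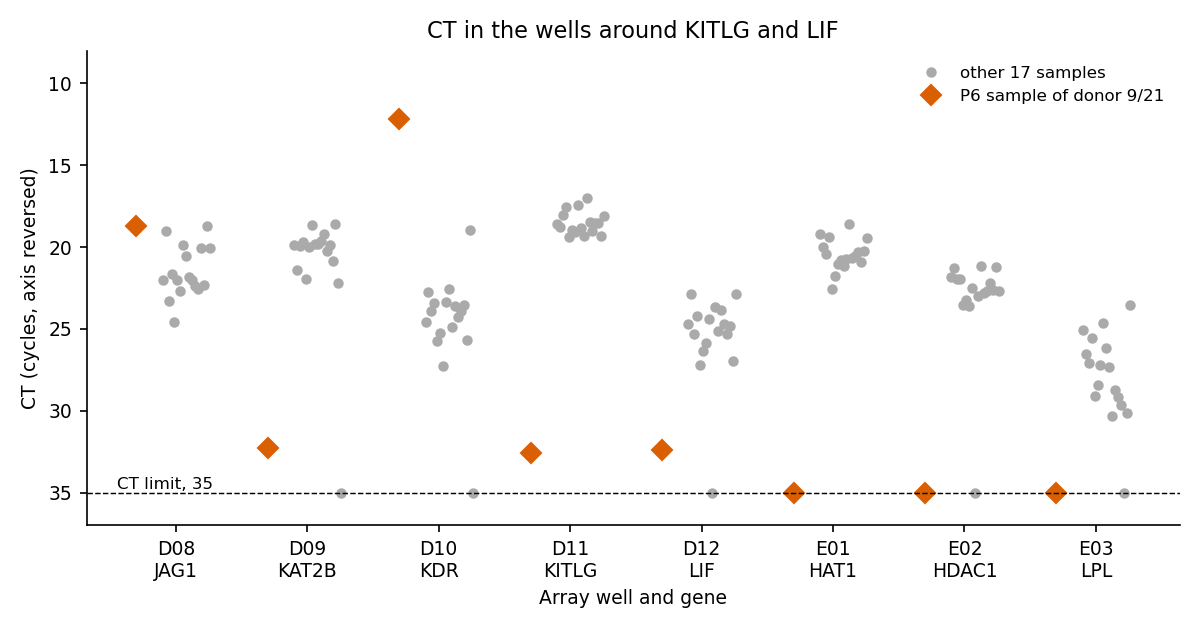
CT in cycles (vertical axis, reversed so that higher expression is up) in 8 consecutive array wells from D08 to E03, for the P6 sample of donor 9/21 (diamonds) and the other 17 samples (grey points). The dashed line is the limit of 35 cycles, at which undetected wells are drawn. For KITLG the diamond is at 32.58 cycles while the grey points lie between 16.97 and 19.39.

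IL6 was detected in all 18 samples at a level far under that of KITLG. Its −ΔCT ran from −13.31 over a median of −10.52 to −9.78 at P3, and from −15.18 over −11.03 to −6.36 at P6. The P3 samples form 1 group, whereas at P6 donor 6/22 was the highest and donors 1/22 and 7/22 (−13.74) the lowest, and the passages overlapped.

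Mean IL6 expression was −11.00 ± 1.16 (SD, n = 9) at P3 and −11.40 ± 2.46 (SD, n = 9) at P6, a log2 difference of −0.40 (SE 0.883, 95% interval −2.25 to 1.46, limma, adjusted p = 0.968). Donors moved in opposite directions. IL6 was lower at P6 in 6 of 9 donors, with a log2 difference of −5.03 (32.7-fold) in donor 1/22 and −2.17 to −0.82 in the other 5, and higher by 5.14 (35.3-fold), 2.33 and 1.58 in donors 6/22, 6/21 and 14/21. Without the P6 sample of donor 6/22 the difference was −1.03 (SE 0.688, limma, adjusted p = 0.906), and without donor 1/22 it was 0.18 (limma, adjusted p = 0.943).

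LIF, the other member of the IL6 family here, was detected in 8 of 9 samples at P3 and in 9 of 9 at P6. The lowest, median and highest −ΔCT were −20.89, −10.47 and −8.31 at P3, and −17.71, −10.23 and −8.59 at P6. Each passage held 1 sample far under the rest, donor 7/22 at P3, where the well never crossed, and donor 9/21 at P6, and the other samples overlapped between passages.

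Mean LIF expression was −11.36 ± 3.70 (SD, n = 9) at P3 and −10.87 ± 2.83 (SD, n = 9) at P6. The log2 difference of 0.49 (SE 1.49, 95% interval −2.63 to 3.62) did not pass the test (limma, adjusted p = 0.982), although 7 of 9 donors were higher at P6. Of these, donor 7/22 differed by 12.13 log2 units and the other 6 by 0.01 to 1.90, while donors 9/21 and 6/22 were at −9.40 and −2.79. The direction of the mean turned with the 2 distant wells. Without the P3 sample of donor 7/22 (P3 then −10.17 ± 1.02, SD, n = 8) the difference was −0.70 (limma, adjusted p = 0.899), and without the P6 sample of donor 9/21 (P6 then −10.01 ± 1.28, SD, n = 8) it was 1.35 (limma, adjusted p = 0.894). In the P3 sample of donor 7/22 HDAC1 was undetermined as well, whereas KITLG and HAT1, in the wells on either side of LIF, crossed at 18.83 and 21.15 cycles.

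CSF3 was detected in 8 of 9 samples at P3 and in 9 of 9 at P6, at CT values between 22.57 and 31.28 cycles where detected. Its −ΔCT was lowest, median and highest at −19.76, −14.49 and −9.43 at P3, and at −15.92, −14.68 and −8.06 at P6. At P3 donor 3/22 was high and donor 2/22 not detected. At P6 donors 6/22 and 9/21 (−8.09) lay over 5 log2 units above the other 7, which were all between −15.92 and −13.42, inside the P3 range.

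Mean CSF3 expression was −14.57 ± 2.85 (SD, n = 9) at P3 and −13.29 ± 3.03 (SD, n = 9) at P6. The log2 difference of 1.28 (SE 1.33, 95% interval −1.52 to 4.08), or 2.43-fold higher at P6, did not pass the test (limma, adjusted p = 0.873), and the medians differed in the other direction, by −0.19. CSF3 was higher at P6 in 6 of 9 donors, most in donors 6/22 (6.54 log2 units, 93.3-fold), 9/21 (4.37) and 2/22 (3.84, from an undetected well), with a difference of −4.87 in donor 3/22. Without the P6 sample of donor 6/22 the difference was 0.63 (limma, adjusted p = 0.933), and without that of donor 9/21 it was also 0.63 (limma, adjusted p = 0.923).

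The P6 sample of donor 6/22 had the earliest crossing of all 18 samples for CSF3 (22.57 cycles), IL6 (20.87 cycles) and CTNNB1 (14.60 cycles), which encodes beta-catenin. Both endothelial markers were high in this sample, with VWF, the von Willebrand factor gene, at a −ΔCT of −7.60 (rank 1 of the 9 P6 samples) and KDR at −4.43 (rank 2). The P6 sample of donor 9/21, the other one with high CSF3, was high in KDR alone (2.52, the early well D10 described above), while its VWF was at −14.35 (rank 7). In the other 7 P6 samples VWF ran from −15.53 to −11.47 and KDR from −20.87, not detected, to −8.75. VWF was detected in all 18 samples and KDR in 17. The adipocyte markers (ADIPOQ, LPL, PPARG and FASN) of donor 6/22 at P6 averaged −8.05, second highest of the 9. LPL alone was not high in this sample, crossing at 30.13 cycles against a mean of 29.86 over the P6 samples. The leukocyte markers PTPRC and ITGAX were not detected in the P6 sample of donor 6/22 (mean −20.49). The part of these markers in the IL6 and CSF3 values was not tested.

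CSF2 was at the limit of detection. It crossed under 35 cycles in 4 of 9 samples at P3 (donors 9/21, 13/21, 14/21 and 1/22, at 31.1, 32.05, 31.03 and 34.3 cycles) and in 1 of 9 at P6 (donor 6/21, at 33.05 cycles), with another P6 well, of donor 6/22, at 35.33 cycles. No donor was detected at both passages and 4 donors (2/22, 3/22, 6/22 and 7/22) at none. The difference in detection did not pass the test (Fisher's exact test, two-sided, p = 0.294, adjusted p = 1 over 84 genes, where 0% of genes were called). For detected wells the −ΔCT was −18.59 to −16.42 at P3 and −18.01 at P6, so that the P6 value lies inside the P3 range.

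With undetected wells set to the limit, CSF2 expression was −18.87 ± 1.67 (SD, n = 9) at P3 and −20.13 ± 0.846 (SD, n = 9) at P6, a log2 difference of −1.26 (SE 0.626, 95% interval −2.57 to 0.06), or 2.39-fold lower. This was the smallest p of the 5 genes (limma, unadjusted p = 0.0597, adjusted p = 0.835; exact permutation p = 0.0593 over 48620 divisions, two-sided, n = 9 per passage). In the 4 donors without a detected well, the difference holds only the change in their reference genes. The size followed the limit, being −2.41 with a limit of 40 cycles and −0.40 with a limit of 32 cycles, at which 2 samples of P3 and 0 of P6 were detected.

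None of the 5 genes passed the test between passages (limma, adjusted p between 0.835 and 0.982), where 1.19% of the 84 genes did, which is PTPRC alone (CD45, the pan-leukocyte phosphatase; log2 difference −4.38, adjusted p = 0.0300). With donor as a block 2 genes passed, and by the exact permutation test 0, so that none of these 5 did in either. At an unadjusted p under 0.05 the count was 0 of 5 genes, against 5.95% of all genes. A difference of at least 2-fold lower at P6 was seen for 2 of the 5, CSF2 and KITLG, against 25% of all genes, and at least 2-fold higher for CSF3, against 11.9%, making 3 of 5 in either direction against 36.9%. Without the P6 sample of donor 9/21 the count lower was 1 (CSF2), against 19% of all genes, and the gene higher was LIF in place of CSF3. Without the P6 sample of donor 6/22 the count lower was 3, with IL6 added, against 25%, and CSF3 was again under 2-fold. The mean was lower at P6 for 3 of the 5 genes, against 53.6% of all genes. The median log2 difference was −0.40 over these 5 genes and −0.05 over all 84. The intervals remained wide, and the lower limit for KITLG and the upper limit for CSF3 both lay beyond 4 log2 units.

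**Figure D3:**
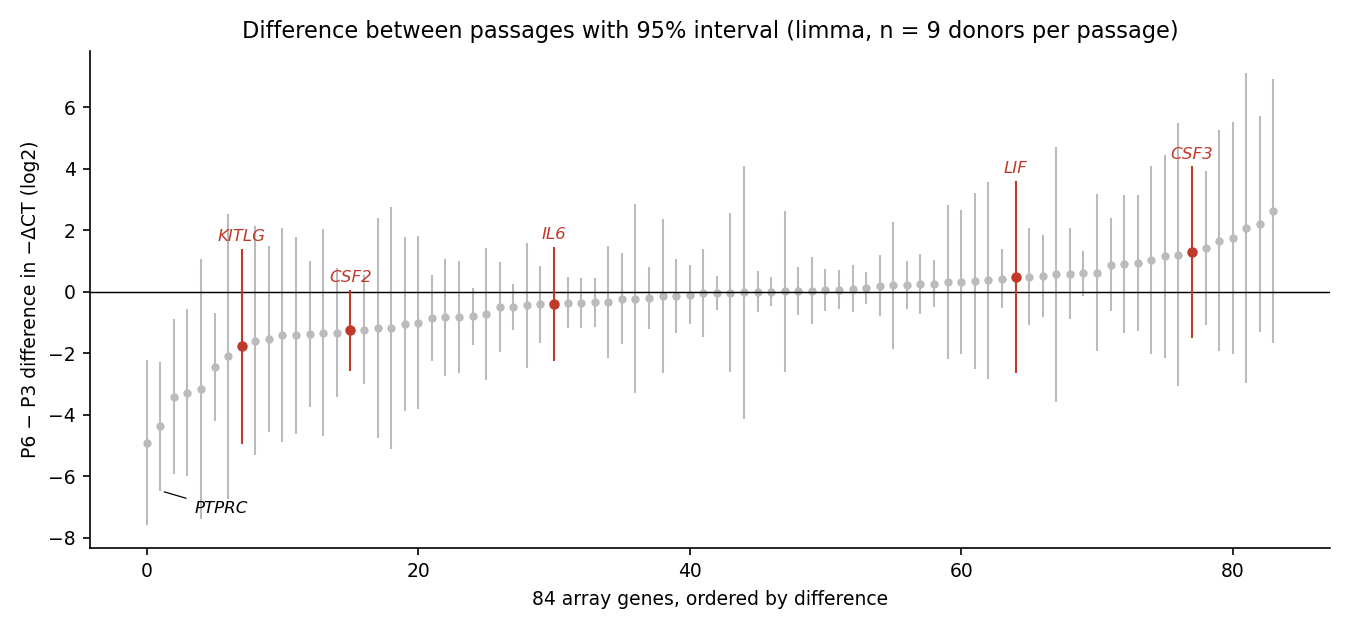
Log2 difference in −ΔCT between P6 and P3 (vertical axis) with its 95% interval from limma for all 84 array genes, ordered from the lowest to the highest (horizontal axis, rank). The 5 cytokine genes are in red, and the interval of each includes 0, from KITLG (−1.78) to CSF3 (1.28). PTPRC, the gene that passed the adjusted test, is labelled.

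The order of the 5 levels was read within each sample, where the reference genes cancel; the efficiencies of the assays are not given in the sources used here, so an order between genes is of CT and not of transcript number. Taken at the mean −ΔCT, KITLG stood at 7.93% of the reference level at P3 and 2.31% at P6 (7.81% and 6.56% at the median). IL6 was at 0.0487% and 0.0370% (0.0683% and 0.0478% at the median) and LIF at 0.0380% and 0.0534% (0.0706% and 0.0832% at the median), so that at P3 LIF lay under IL6 at the mean and above it at the median. CSF3 followed at 0.00411% and 0.00999%, but at 0.00436% and 0.00381% at the median, the opposite order of passages. CSF2 was at 0.000208% and 8.71e-05%, the latter mostly set by the limit. Among the 84 genes KITLG ranked 13 at P3 and 25 at P6, and 15 at P6 without the sample of donor 9/21, while CSF2 ranked 83 at both.

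KITLG exceeded IL6 by 7.35 log2 units at P3, in 9 of 9 donors (exact paired permutation test, two-sided, adjusted p = 0.0156 over 8 neighbouring pairs), and LIF by 5.43 at P6, in 8 of 9 donors (exact paired permutation test, adjusted p = 0.0156). IL6 and LIF could not be placed in order, with a difference of 0.36 at P3 (5 of 9 donors, exact adjusted p = 0.875) and 0.53 in favour of LIF at P6 (6 of 9 donors, exact adjusted p = 0.804). CSF3 lay under LIF by 3.21 at P3 and under IL6 by 1.89 at P6, each in 7 of 9 donors, and neither step passed (exact adjusted p = 0.0625 for both). CSF2 was under CSF3 by 4.30 at P3, in 8 of 9 donors, and by 6.84 at P6, in 9 of 9 (exact adjusted p = 0.0156 for both). Since most CSF2 wells were not detected, these gaps follow the limit, being 2.71 and 4.06 with a limit of 32 cycles and 6.52 and 10.77 with a limit of 40 cycles, with the same adjusted p.

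Spread between donors also differed among the genes. At P3 the SD of KITLG, 0.615, ranked 71 of 84 from the largest, with a median SD of 1.32 over all genes, whereas LIF (3.70, and 1.02 without donor 7/22) ranked 7 and CSF3 (2.85) ranked 16. At P6 the SD of KITLG was 4.70, rank 11, with donor 9/21 and 0.603 without it, and the median SD over all genes was 2.07. Each gene has 1 well per sample, so that these SDs contain the error of single wells as well as differences between dogs.

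Donors did not keep a detectable order from P3 to P6. Pearson's r between the P3 and P6 levels of 9 donors was −0.26 for IL6, −0.44 for LIF, −0.18 for CSF2, 0.34 for CSF3 and 0.30 for KITLG (exact permutation adjusted p from 0.605 to 0.728 over 5 relations), with Spearman's rho of −0.22, −0.38, 0.22, 0.53 and 0.38 (exact adjusted p from 0.521 to 0.581). Without the 2 donors farthest from the P3 median, r was −0.28, −0.03, −0.16, 0.56 and 0.63 in the same order of genes. For KITLG the donors left out were 6/22 and 7/22, and without donor 9/21 r was −0.24.

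Between the genes, 20 correlations across donors were computed (10 per passage) and 0 passed the adjustment. At an unadjusted exact p under 0.05 there were 3 by Pearson's r, all at P6, and 0 by Spearman's rho. LIF correlated with KITLG at r = 0.91 (exact permutation p = 0.0446, adjusted p = 0.297) but at rho = 0.18 (exact permutation p = 0.644, adjusted p = 0.990). LIF with CSF3 gave r = −0.79 (exact permutation p = 0.0232, adjusted p = 0.232) and rho = −0.35 (exact permutation p = 0.359, adjusted p = 0.873). CSF3 with KITLG gave r = −0.70 (exact permutation p = 0.00852, adjusted p = 0.170) and rho = −0.65 (exact permutation p = 0.0666, adjusted p = 0.775). These 3 rest on donors 9/21 and 6/22, without which r became −0.71, 0.43 and −0.29. IL6 with CSF3 at P6 had r = 0.66 (exact permutation p = 0.0648, adjusted p = 0.324) and rho = 0.58 (exact permutation p = 0.108, adjusted p = 0.775), and r = 0.31 without donors 1/22 and 6/22.

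The array genes with the pattern most like each of the 5 were sought by Pearson's r of −ΔCT over the 18 samples, among the genes detected in every sample (51, and 50 for IL6 and KITLG, which are among them). These values describe the likeness only, and all points of a sample share its reference genes. IL6 was most like VWF (r = 0.79, rho = 0.65), and then ENG, the endoglin gene (r = 0.57, rho = 0.21), and SMURF2, a ubiquitin ligase gene (r = 0.40, rho = 0.00). CSF3 was most like ENG (r = 0.61, rho = 0.71), CTNNB1 (r = 0.54, rho = 0.15) and SMURF2 (r = 0.54, rho = 0.59). Without the P6 sample of donor 6/22, r was 0.63, 0.04 and −0.21 for these likenesses of IL6 and 0.40, 0.33 and 0.27 for those of CSF3. KITLG was nearest to HGF, the hepatocyte growth factor gene (r = 0.61, rho = 0.35), VCAM1 (r = 0.52, rho = 0.03) and GTF3A (r = 0.42, rho = 0.49), of which r without the P6 sample of donor 9/21 was 0.19, −0.15 and 0.40. LIF was nearest to KITLG (r = 0.56, rho = 0.10), HGF (r = 0.52, rho = 0.37) and TGFB1 (r = 0.50, rho = −0.04), of which r without the same sample was 0.40, 0.31 and 0.46. The undetected P3 well of donor 7/22 (−20.89), the lowest LIF value, was kept in all of these, and r without it was not computed. For CSF2, mostly at the limit, the highest values were 0.33 with CD44 and 0.31 with MITF.

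Other genes of these pathways on the array were described in the same fit. Of 4 further cytokines 0 passed, with IL10 at a log2 difference of −2.45 (limma, adjusted p = 0.222), IL1B at −1.38, TNF at 1.15 and IFNG at 0.35, a median of −0.52 and detection in 23 of 36 wells at P3 and 22 of 36 at P6. TNF was at 0.25 without the P6 sample of donor 9/21. TNF and IL1B, inducers of the colony-stimulating factors, were detected in 2 and 4 samples at P3 and in 5 and 2 at P6. Of the adhesion genes that cytokines induce, ICAM1 was at 0.51 (higher in 8 of 9 donors) and VCAM1 at 0.31, and neither passed (limma, adjusted p = 0.873 and 0.982).

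Of 4 other genes of the blood stem cell niche, 0 passed. JAG1, a Notch ligand gene, was at 0.59, NES (nestin) at 1.66 and TGFB1 at 0.22 beside VCAM1, with a median of 0.45. NES was not detected in the P3 sample of donor 7/22, and without this sample its difference was −0.07, that of TGFB1 was 0.01 and the median 0.25. Without the P6 samples of donors 9/21 and 6/22 as well, the median of these 4 genes was −0.01. Among 7 further secreted growth factors (BDNF, EGF, FGF2, FGF10, HGF, IGF1 and VEGFA) 0 passed, 4 had a higher and 3 a lower mean at P6, and the median log2 difference was 0.09.

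Leukocyte markers were lower at P6, and leukocytes can themselves make IL6 and colony-stimulating factors. The mean −ΔCT of PTPRC and ITGAX was −14.40 ± 2.01 (SD, n = 9) at P3, with a range of −17.81 to −11.41, and −19.04 ± 1.29 (SD, n = 9) at P6, with a range of −20.87 to −16.76. They were detected in 17 of 18 wells at P3 and in 7 of 18 at P6. PTPRC passed the test and ITGAX did not (limma, adjusted p = 0.0519). The change of each of the 5 cytokine genes between passages was set against the change of this mean over the 9 donors. Pearson's r ran from −0.39 for LIF to 0.24 for IL6 (exact permutation adjusted p from 0.803 to 0.839 over 5 relations). Spearman's rho ran from −0.35 to 0.43 (exact adjusted p of at least 0.683). Correlations were also read without the 2 donors farthest from the median change of the gene. There r was 0.66 for IL6, 0.28 for LIF, −0.48 for CSF2, 0.17 for CSF3 and −0.61 for KITLG. Without 1 donor at a time, the lowest exact adjusted p of r was 0.131. Most marker wells at P6 were set to the limit, so the change of their mean is a bound and these correlations cannot decide a relation.

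Donor names end in 21 or 22, and the meaning of this ending is not given in the sources used here. Among the 4 donors ending in 21 and the 5 ending in 22, the log2 difference was −2.12 and −0.57 for CSF2, 1.26 and 1.30 for CSF3, −3.52 and −0.39 for KITLG, 0.51 and −1.13 for IL6, and −1.90 and 2.40 for LIF. IL6 and LIF thus differed in sign between these donors. For LIF this rested on the 2 distant wells, as without donor 9/21 the donors ending in 21 averaged 0.60 (n = 3) and without donor 7/22 those ending in 22 averaged −0.03 (n = 4). Single donors also set other values. Without donor 9/21, KITLG and CSF3 averaged −0.14 and 0.22 in the donors ending in 21. In those ending in 22, CSF3 averaged −0.01 without donor 6/22, but 1.16 and 1.84 without donors 7/22 and 1/22. IL6 there averaged −0.15 without donor 1/22 and −2.69 without donor 6/22. KITLG there turned to 0.06 without donor 6/22, but averaged −0.67 and −0.42 without donors 7/22 and 1/22. None of the 10 values with all donors of an ending passed the test (limma, adjusted p from 0.870 to 0.946). CSF2 was detected at P3 in 3 of 4 donors ending in 21 and in 1 of 5 ending in 22, and at P6 in 1 of 4 and 0 of 5. This split of a gene at the limit of detection was not tested.

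**Figure D4:**
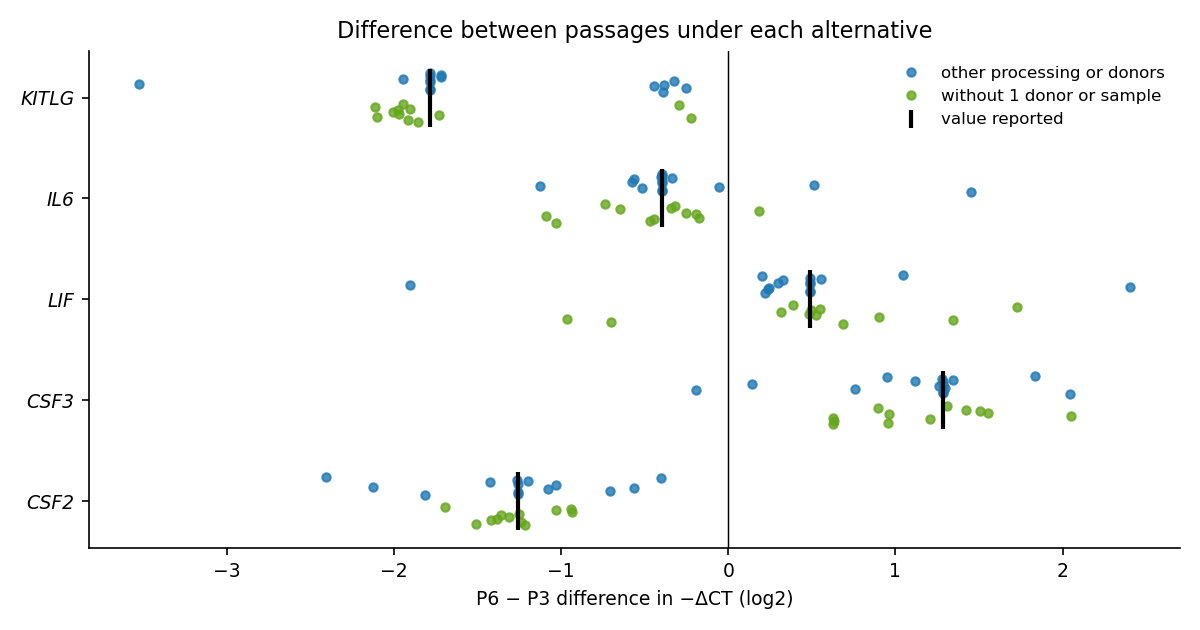
Log2 difference in −ΔCT between P6 and P3 (horizontal axis) for each of the 5 genes, as reported (black bar), under other processing or donor subsets (blue) and without 1 donor or sample (green). CSF2 (−2.41 to −0.40) and KITLG (−3.52 to −0.23) stay under 0 throughout, whereas IL6, LIF and CSF3 have values on both sides.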

How the data were processed

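RNA of cAD-MSCs of 9 dogs was measured at P3 and P6 on an RT-qPCR array (84 genes, 5 reference genes, 7 control wells), with 1 well per gene and sample. For each sample the authors deposited raw CT (threshold cycles, a unit of its own kind) with no limit applied, and marked a well without a crossing as undetermined. The authors also deposited, per passage, the mean CT, the mean ΔCT (a log2 scale) and the ratio to the reference genes, 2 to the power of −ΔCT, from their array software with a limit of 35 cycles and the reference genes ACTB, B2M, HPRT1, PGK1 and RPL13A. Their fold changes and p-values compare P6 with P3 and were not used. The mean ΔCT computed here differed from the deposited one by at most 0.0049 cycles. A limit makes the difference of a weak gene depend on the limit chosen, and reference genes shift all genes of a sample together. No read depth applies, and the number of donors and of wells limits the precision.

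Samples were assigned to passage and donor from the labels. The passages were compared on −ΔCT in limma 3.58.1 (R 4.3.3), two-sided and, like the unpaired test of the study, with no block for donor, with Benjamini-Hochberg adjustment over 84 genes and a threshold of 0.05. Replicates are different dogs. The passages are paired by dog, and same-donor deviations from the passage means correlated at 0.07 to 0.64 (median 0.16, above 0.1 in 6 of 9 donors). Detection was compared with Fisher's exact test, and single values and correlations with exact permutation tests (scipy 1.17.1) over 48620 divisions, 512 sign flips or 362880 pairings. The fit was tested on simulated data. Alternatives were the limit, reference genes, a filter on late genes, the donor block, robust regression, donor subsets, and left-out donors. The 5 genes and all lists were chosen with earlier results of these data known. Named genes were these 5, all genes of the lists, any gene passing the test, and for each of the 5 the 3 genes most like it, of which 1 for CSF2 is not reported here. In all 18 samples the genomic DNA control was undetermined, with RT-PCR controls at 16.94 to 17.75 cycles and PCR controls at 14.23 to 15.05 cycles.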

Additional observations from a re-analysis of the deposited data

Results flagged for a closer look

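Among 10 groups examined (5 genes in each passage, 9 samples each), 4 held a sample whose gap to its nearest neighbour was a large share of the whole range. Chance marks about 1 in 20 groups of measured values, which cannot be set against this count, since for LIF at P3 and CSF2 at P6 the limit fixed values of undetected wells. For KITLG at P6 the gap under the other samples was 0.858 of the range (donor 9/21, −17.88, a gap of 13.05 log2 units). For LIF at P3 it was 0.749 (donor 7/22, −20.89, not detected), and for LIF at P6 it was 0.579 (donor 9/21, −17.71). For CSF2 at P6 the highest sample stood apart by 0.654 of the range (donor 6/21, −18.01), being the sole detected well, so that it had to stand apart from 8 wells set to the limit. Differences of the genes' changes between groups of donors were not tested.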

How the results depend on the processing

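The number of genes passing the limma test, 1 of 84, was 0 without ACTB and B2M as references, 0 in donors ending in 21, 0 in donors ending in 22, 0 without donors 9/21 and 7/22, 0 by the exact permutation test and 0 by the methods' test on the linear scale. It was 2 with the median over genes detected in all samples as reference, 3 with robust regression and 0 to 2 without 1 donor each. With late genes left out the count was also 2. There a gene was kept if its mean CT was 30 cycles or less in at least 1 passage, which held for 74 genes. PTPRC (29.19 cycles at P3, 33.38 at P6) and ITGAX (29.30 and 34.02) were kept by their P3 mean alone. The methods' test was adjusted here over the 84 genes. The study read that test at p under 0.05, names no adjustment, and reported IL10 and PTPRC as lower at P6. Left out after seeing the data, the P3 sample of donor 7/22 gave 0 and the P6 sample of donor 6/22 gave 2. None of these calls was one of the 5 genes, under any alternative that could be run, with adjusted p between 0.248 and 0.992; the causes were not tested.

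Paired by dog, with donor as a replicate block, the count was 2, and 0 by the exact paired permutation test; the block changed no other call.

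IL6 turned to 0.51 in donors ending in 21 and to 1.45 on the methods' linear scale, and ran from −1.09 to 0.18 without 1 donor. LIF turned to −1.90 in donors ending in 21 and to −0.70 without the P3 sample of donor 7/22, and ran from −0.96 to 1.73 without 1 donor. CSF3 turned to −0.19 as a difference of medians and ran from 0.62 to 2.05. CSF2 ran from −1.69 to −0.94 and KITLG from −2.11 to −0.29 without 1 donor, both keeping their direction under every alternative run. Of the orders, LIF over CSF3 at P3 passed with a limit of 32 cycles (3.21, exact adjusted p = 0.0250), and without 1 donor it ran from 2.53 to 4.08, passing without donor 3/22 or 7/22. IL6 over CSF3 at P6 ran from 1.58 to 2.49 and passed without donor 9/21. IL6 over LIF ran from −0.77 to 0.82 at P3, and LIF over IL6 from −0.10 to 1.43 at P6, turning without donor 7/22 in both passages and without donor 1/22 at P6. The correlation of P3 with P6 for CSF2 became 0.71 at a limit of 32 cycles (−0.39 to 0.35 without 1 donor), and that for KITLG −0.40 without donors 9/21 and 7/22 (−0.24 to 0.49 without 1 donor).

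CSF2, with a mean CT above 30 cycles in both passages, could not be fitted with late genes left out. Correlations within 4 or 5 donors were not run. With 9 dogs and single wells, differences of several cycles in 1 well set a mean, and CSF2 and other late genes carry only a bound where undetected.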
